A study of Mus musculus with 11 samples.

Results

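The genes described here belong to the BMP, activin and myostatin branch of TGF-beta family signalling. They are a fixed list of 10 genes matched by symbol: the ligand genes Bmp2, Bmp3, Bmp4, Inhbb and Mstn, the antagonist genes Grem1 and Fst, and the receptor genes Bmpr1a, Acvr1c and Bmpr2. No measured value entered the rule, although the genes were chosen with earlier results of these data known. The per-mouse tables hold 9 of the 10 among 15453 genes, and Grem1 was not analysed here.

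BMPs, activins and myostatin are secreted dimers that bring together type I and type II receptor kinases at the cell surface. The type I receptor then phosphorylates Smad proteins, Smad1, Smad5 and Smad9 on the BMP side and Smad2 and Smad3 on the activin and myostatin side, and these enter the nucleus with Smad4. Follistatin, noggin, gremlin and related secreted proteins bind the ligands and keep them from their receptors. In white fat these pathways are known for their roles in the commitment of precursors to adipocytes and in lipid storage.

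The data are 3' expression tags (SOLiD SAGE) from epididymal white adipose tissue (eWAT), the fat pad beside the testis, of 11 male C57BL/6 mice (C57BL/6J in the methods) aged 16 weeks that were fed a high fat diet from week 8 to week 16. The study asked which genes are dysregulated in fat when the imprinted gene Mest, mesoderm specific transcript, is lost. Of these mice, 6 were wildtype (WT) and 5 were pKO, heterozygous for a deletion of Mest exon 3 inherited from the father, the parent whose allele is expressed. The deletion was made in the germline with an EIIa-cre transgene and is present in every tissue, so it is not specific to adipocytes, and the WT mice were littermate controls from crosses of WT females with males carrying the deletion on the maternal allele. The study picked these mice out of a larger diet cohort and describes the pKO mice as leaner, so genotype and adiposity cannot be told apart.

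Means are given ± SD over the mice of a genotype (n = 6 WT, n = 5 pKO). A value is the number of tags of a gene divided by a scaling factor for its library, called normalized tags below, and 1 tag was worth between 0.836 and 1.19 of these units. WT libraries held between 9659740 and 14825727 tags, and pKO libraries between 11320342 and 14626803. Each transcript gives 1 tag whatever its length, so levels of different genes are compared below on the scale of normalized tags, although genes can differ in how well their tag is captured. Mest, at 25107 ± 2672 (SD, n = 6) normalized tags in the WT group and 1663 ± 566 (SD, n = 5) in the pKO group, stood at 6.63% of its WT level and no pKO mouse overlapped a WT mouse. Adipocyte markers were abundant in both genotypes, with Adipoq at 65204 and 74798 normalized tags on average, while the 4 epididymis epithelium markers measured summed to between 16.4 and 74.3 in any mouse. In a whole fat pad, fewer cells of a type and less RNA per cell cannot be told apart.

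The tag of a transcript begins at its last NlaIII site, CATG, before the poly(A) tail. The tags predicted for the 6 genes that the results turn on or whose tag is unusual are given here from the GRCm38 assembly (mm10) and GENCODE M21 transcripts, 5' to 3', with the NlaIII site in capitals and the bases that follow it in lower case.
Mstn: CATGtatctaaagaaatacaaatatgg
Bmp3: CATGatcagcatcttagaatacccaga
Inhbb: CATGtacagtataagacaataaaagat
Acvr1c: CATGtatacttatattgttaagaaata
Bmp4: CATGttgtacctggatgagtatgacaa
Bmpr2: CATGtatgtctgtataagggtgttaga
The Mstn tag lies at chr1:53067867-53067893 on the plus strand, in the 3' UTR within exon 3 of 3. The Bmp3 tag (chr5:98884260-98884286, plus strand) and the Inhbb tag (chr1:119415477-119415503, minus strand) lie in 3' UTRs as well. So does the Acvr1c tag (chr2:58267748-58267774, minus strand). The 4 annotated Acvr1c transcripts end in 3 distinct tags and the 3 of Bmp3 in 2. Transcripts of Fst and Bmpr1a, whose tags are not shown, also end in more than 1. The Bmp4 tag (chr14:46383914-46383940, minus strand) is in coding sequence, since its 3' UTR holds no later NlaIII site. For Bmpr2 the last NlaIII site stands 1 base before the annotated transcript end and leaves no room for a tag. The tag shown (chr1:59878709-59878735, plus strand) is that of the site before it, 302 bases from the end. A transcript of this annotated end that is cut at its last site would not give that tag. Bmpr2 may therefore be undercounted, which was not tested. None of these tags is also the last tag of another gene. The tag that the authors counted for each gene is not given in the sources used here.

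In WT fat, Acvr1c and Inhbb led the 9 genes, with 1367 ± 189 and 1215 ± 164 normalized tags, and their ranges overlapped. Acvr1c encodes ALK7, a type I receptor that is enriched in adipocytes, and Inhbb encodes the beta B subunit of activin B, one of its ligands. Bmpr1a (771 ± 38.7), Bmp3 (424 ± 78.7) and Fst (147 ± 34.9) followed in that order, each with a WT range below that of the gene before it. Bmp2 (106 ± 17.7) overlapped Fst. Mstn (41.1 ± 15.7), Bmp4 (29.6 ± 17.3) and Bmpr2 (10.9 ± 3.21) came last, with Mstn overlapping Bmp4 and Bmp4 overlapping Bmpr2. The place of Bmpr2 is uncertain, since the position of its last NlaIII site may leave it undercounted.

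Between genotypes, Mstn was the member with a difference past an unadjusted p of 0.05, being lower in pKO mice, and none of the 9 passed an adjusted p of 0.1 in limma's test over all 15453 genes. Across all genes, 0.0324% passed the adjusted threshold, 5.35% were lower in pKO mice at an unadjusted p of at most 0.05 and 4.2% were higher. Of the members, 6 had lower and 3 had higher estimates in pKO mice, with a median log2 fold change (pKO minus WT) of -0.16 against -0.0025 over all genes. Without pKO replicate 2, the library with the most genes at 0 (616), the split was 5 lower and 4 higher. Fold changes are on the log2 scale of normalized tags + 1, so the change of a gene with few tags is understated.

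**Figure D1:**
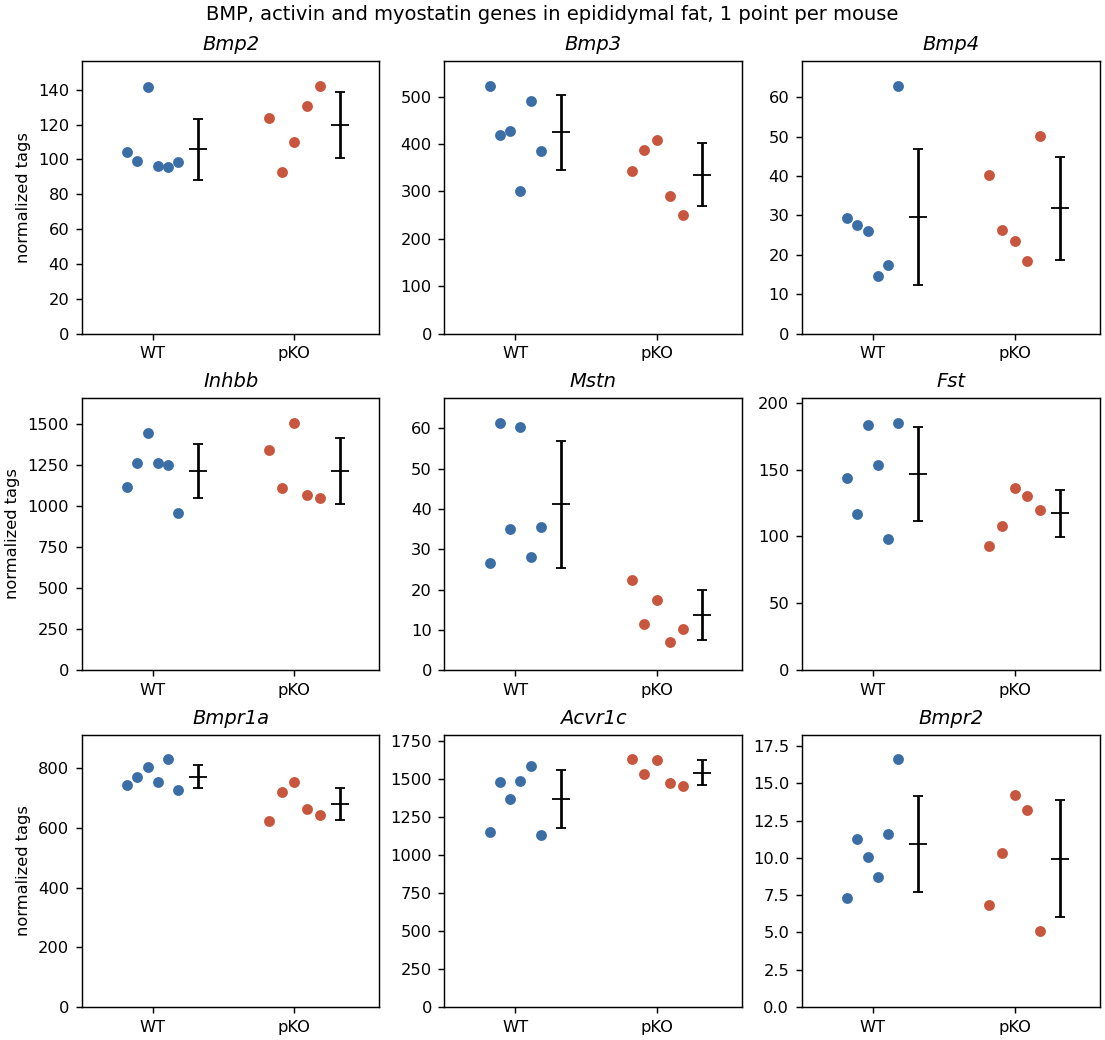
Normalized tags (vertical axes, each from 0) of the 9 genes in each WT mouse (blue, n = 6) and each pKO mouse (red, n = 5), with the mean and SD in black. The pKO points of Mstn, from 7.06 to 22.3, all sit below its WT points, from 26.5 to 61.4, while for each of the other 8 genes the points of the genotypes overlap.

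Among the BMP ligands, Bmp3 had the most tags and its estimate was lower in pKO mice, but the test did not separate the genotypes. Bmp3 encodes an atypical BMP that antagonises other BMPs. Its lowest, median and highest values in WT mice were 301, 423 and 523 normalized tags, and the pKO mice had 343, 386, 408, 289 and 249.7. The pKO values occupied the lower part of the WT range and went below it in 2 mice, replicates 4 and 5. The log2 fold change of Bmp3 was -0.34 (SE 0.17, 95% interval -0.71 to 0.029), with an adjusted p of 0.55 in limma and an exact permutation p of 0.084 (two-sided, 462 splits of the mice).

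Bmp2, an osteogenic BMP that can also drive precursors toward fat, was measured at 95.5, 98.9 and 141 normalized tags (lowest, median and highest) in WT and at 124, 92.8, 109.9, 131 and 142 in pKO mice. Most WT mice lay in a narrow band from 95.5 to 104, with replicate 3 apart at 141, and 4 of the 5 pKO mice were above that band. The estimate for Bmp2 was 0.18 (SE 0.16, 95% interval -0.17 to 0.52; limma adjusted p = 0.76; exact permutation p = 0.22). Bmp4, known for committing mesenchymal precursors to the adipocyte lineage, had 14.6, 26.8 and 62.9 normalized tags in WT (lowest, median and highest) and 40.3, 26.4, 23.4, 18.5 and 50.1 in pKO mice. Its genotypes overlapped widely, and the WT mean rested in part on replicate 6, which held the 62.9. The Bmp4 estimate of 0.17 had an interval from -0.60 to 0.93 (limma adjusted p = 0.92; exact permutation p = 0.67), and it was -0.017 without pKO replicate 5.

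Bmp3 supplied 52.6% ± 8.2 of all tags of the 12 BMP and GDF ligand genes measured in WT mice and 47.0% ± 9.9 in pKO mice. Gdf10, the closest relative of Bmp3, came next with 15.9% and 17.8%, and Bmp2 gave 13.2% ± 2.1 and 16.8% ± 3.0. Bmp4 contributed 3.6% and 4.4%. None of the 12 ligand genes passed an unadjusted p of 0.05 in either direction, and their median log2 fold change was -0.013.

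Inhbb did not separate the genotypes, and its mean was close to equal in both, 1215 ± 164 in WT and 1214 ± 202 in pKO mice. WT values were 958, 1255 and 1443 normalized tags (lowest, median and highest), and pKO values were 1339, 1109, 1508, 1067 and 1047. The Inhbb estimate was -0.0051 with a 95% interval from -0.30 to 0.29, which bounds the difference to 0.30 on the log2 scale in either direction (limma adjusted p = 0.995; exact permutation p = 0.97).

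Mstn encodes myostatin, best known as the brake on skeletal muscle growth and also made at low level in fat. Its WT values were 26.5, 61.4, 35.1, 60.2, 28.0 and 35.6 normalized tags, and its pKO values were 22.3, 11.5, 17.3, 7.06 and 10.2. Every pKO mouse was below every WT mouse, the nearest being pKO replicate 1 at 22.3 and WT replicate 1 at 26.5. As recovered tags these values are 252 tags over the 6 WT and 71 over the 5 pKO libraries. The mean was 3.01 times higher in WT than in pKO mice (41.1 ± 15.7 against 13.7 ± 6.09), and the log2 fold change was -1.54 (SE 0.32, 95% interval -2.22 to -0.86). The exact permutation p was 0.0022, the smallest that 462 splits can give, and limma's unadjusted p of 0.00027 became 0.19 after Benjamini-Hochberg adjustment over all genes. Across all 15453 genes, 0.673% had every pKO value below every WT value and 0.569% had every pKO value above. The study's own list of differing genes, made on these same samples, includes Mstn, so its place here is not independent evidence of its direction. The adjusted p was 0.0075 with DESeq2 on the recovered tags and 0.22 with edgeR, and it lay between 0.105 and 0.418 when any of the 11 mice was left out.

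Skeletal muscle markers were measured beside Mstn, since muscle is where the gene is most active. Of 14 markers 12 were in the tables, and their sum ran from 1987 to 2460 normalized tags in WT (median 2294) and from 1967 to 3644 in pKO mice (median 2508). That sum was mostly Myl1, a myosin light chain with 2042 normalized tags in WT and 2483 in pKO mice, so it says little of the other markers. By gene, 6 of the 12 had lower and 6 had higher estimates, with a median log2 fold change of -0.021. Ckm, the muscle creatine kinase (5.2 and 3.2), Myh1, a fast myosin heavy chain (1.6 and 2.9), and Ttn, the sarcomere protein titin (2.3 and 1.7), were near 0 in both genotypes. Myh2, another fast myosin heavy chain, was the muscle marker past an unadjusted p of 0.05. It had 8.33 ± 1.55 normalized tags in WT and 2.29 ± 1.35 in pKO mice, with no overlap (limma unadjusted p = 0.00088, adjusted p = 0.27). Casq1, a calcium store protein (3.9 and 2.5; log2 fold change -0.74), and Tnnc2, a fast troponin (32.2 and 23.9; log2 fold change -0.44), had lower estimates that did not pass. Acta1, the skeletal muscle actin, had 54.5 ± 8.58 normalized tags in WT and 74.5 ± 82.1 in pKO mice. Its pKO values ran from 16.4 to 219, and its log2 fold change was -0.090. The 6 higher estimates were those of Myh1 (log2 fold change 0.54), Tnni2 (0.30), Myl1 (0.26), Mylpf (0.14), Actn3 (0.11) and Mb (0.048), and none passed. Mylpf had 44.9 normalized tags in WT and 48.7 in pKO mice, and Actn3 had 46.2 and 50.2. The part of muscle RNA in the Mstn difference was not tested.

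Within the activin, inhibin and myostatin ligands, Inhbb carried 93.3% ± 1.1 of the tags of the 7 genes measured in WT and 95.8% ± 0.96 in pKO mice. Mstn carried 3.16% ± 1.1 and 1.05% ± 0.35. Inhba, the beta A subunit of activin A, had 10.1 ± 4.88 normalized tags in WT and 8.76 ± 5.41 in pKO mice, so tags of the activin beta subunits measured came almost wholly from Inhbb. Gdf9, a ligand best known from the oocyte, had 28.8 and 22.6, and Inha, the inhibin alpha subunit, 3.0 and 3.4. Mstn was the 1 gene of the 7 past an unadjusted p of 0.05, and the median log2 fold change of the list was -0.18.

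Fst encodes follistatin, which binds and neutralises activins and myostatin, and some BMPs less tightly. Its WT values were 98.4, 148 and 185 normalized tags (lowest, median and highest), and its pKO values were 92.7, 108, 136, 131 and 119.7. Of the pKO mice, replicate 1 was below every WT mouse and the other 4 lay in the lower and middle part of the WT range, and the estimate was -0.30 (SE 0.19, 95% interval -0.70 to 0.11; limma adjusted p = 0.64; exact permutation p = 0.14).

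Bmpr1a encodes ALK3, a type I receptor for BMP2 and BMP4. It varied least of the 9 genes between WT mice, with a coefficient of variation of 5.02%, and had 726, 762 and 830 normalized tags there (lowest, median and highest). The pKO mice had 622, 719, 754, 664 and 643, so 4 of the 5 were below all WT mice. The mean was 771 ± 38.7 in WT and 680.3 ± 54.6 in pKO mice. This gave a log2 fold change of -0.18 (SE 0.10, 95% interval -0.41 to 0.039). The exact permutation test, which uses the spread of Bmpr1a alone, gave p = 0.017 before any adjustment, while limma, which draws the spread toward that of genes of like level, gave an unadjusted p of 0.099 and an adjusted p of 0.59.

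Acvr1c had 1131, 1423 and 1584 normalized tags in WT (lowest, median and highest) and 1629, 1535, 1626, 1470.4 and 1452 in pKO mice. The pKO values lay in a narrow band in the upper part of the WT range and 2 of them exceeded it, against 2 WT mice near the lower end, replicates 1 and 6. The estimate for Acvr1c was 0.18 (SE 0.12, 95% interval -0.074 to 0.44; limma adjusted p = 0.64; exact permutation p = 0.11). Acvr1c made up 52.8% ± 3.5 of the tags of the 7 type I receptor genes in WT and 57.2% ± 3.4 in pKO mice, and Bmpr1a made up 30.0% ± 1.4 and 25.2% ± 1.6. These shares sum over the same genes, so a higher share of 1 receptor lowers that of the rest. The other type I receptors of the list each gave at most 7.95% of its tags in any mouse, among them Acvrl1 (ALK1, an endothelial receptor), Acvr1 (ALK2) and Tgfbr1 (ALK5, the TGF-beta receptor).

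Bmpr2, the type II receptor for BMPs, had few tags, 5 to 15 in any library. Its values were 7.31, 10.6 and 16.6 normalized tags in WT (lowest, median and highest) and 6.87, 10.3, 14.2, 13.2 and 5.12 in pKO mice. The coefficient of variation between WT mice, 29.4%, was no larger than the 30.2% that counting so few tags gives by itself, and between pKO mice it was 39.6% against 31.3% from counting. Its estimate of -0.16 (95% interval -0.82 to 0.49; limma adjusted p = 0.90; exact permutation p = 0.58) leaves a difference of that size not detectable with so few tags, and it was 0.025 without pKO replicate 5. Bmpr2 gave 0.38% and 0.32% of the tags of the 5 type II receptor genes, of which Tgfbr2, the TGF-beta receptor, gave 89.1% and 87.9%. The Bmpr2 share would be too low if its transcripts are undercounted because of the last NlaIII site, which was not tested. The activin receptor Acvr2a had 49.0 ± 6.12 normalized tags in WT and 52.2 ± 7.35 in pKO mice, and Amhr2, the receptor for anti-Müllerian hormone, had 257 and 309.7. None of the type I or type II receptor genes passed an unadjusted p of 0.05.

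**Figure D2:**
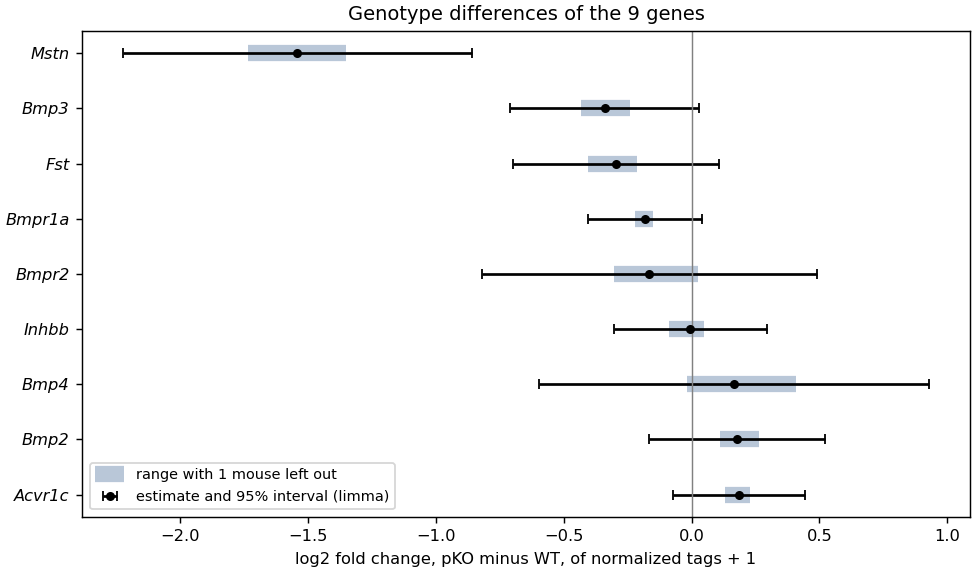
Log2 fold change of each of the 9 genes (horizontal axis, pKO minus WT, of normalized tags + 1) with its 95% interval from limma, over a pale bar that spans the estimates with 1 mouse left out at a time. The interval of Mstn, -2.22 to -0.86, lies wholly below 0, and those of the other 8 genes include 0.

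The rest of the pathway was read from 69 further genes. At an unadjusted p of at most 0.05, 3 were lower and 3 were higher in pKO mice, none passed an adjusted p of 0.1 and the smallest adjusted p was 0.42 (limma). Over all genes the shares were 5.35% lower and 4.2% higher. The median log2 fold change of the 69 was -0.0093, and it was 0.022 with edgeR and 0.028 with DESeq2.

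The 3 higher genes were all secreted antagonists or binding proteins, a list with 18 genes measured, none lower at that threshold, and a median log2 fold change of 0.11. Bmper, an extracellular BMP-binding protein best known from blood vessels, had 165 ± 31.8 normalized tags in WT and 223 ± 29.7 in pKO mice. The estimate for Bmper was 0.44 (SE 0.16; limma unadjusted p = 0.014, adjusted p = 0.42), and 2 pKO mice exceeded every WT mouse. Nbl1, a BMP antagonist of the DAN family, had 57.2 ± 16.4 and 80.2 ± 18.4 (log2 fold change 0.50; limma adjusted p = 0.51). Cer1, a related antagonist of BMPs and nodal, had only 3.9 ± 2.0 and 9.36 ± 4.36, that is 24 tags over the 6 WT and 49 over the 5 pKO libraries (log2 fold change 1.05; limma adjusted p = 0.44). The antagonists with the most tags did not pass: Fstl1, a follistatin-like glycoprotein, had 7130.3 ± 916 in WT and 8425 ± 1202 in pKO mice, Chrdl1, a chordin-like BMP antagonist, 2034 and 2047, and Twsg1, a modulator of BMP binding, 1880.1 and 2317, where WT replicate 4 at 549 was far below the other WT mice. Htra1, a secreted protease that binds family ligands, came next in abundance with an estimate in the other direction. It had 2032 ± 284 in WT and 1577 ± 826 in pKO mice, with 4 of the 5 pKO mice below every WT mouse (log2 fold change -0.52; limma unadjusted p = 0.091, adjusted p = 0.58).

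The 3 lower genes were Smad1, Id3 and Tdgf1. Smad1, a BMP-activated Smad, had 187 ± 23.1 normalized tags in WT and 149 ± 17.2 in pKO mice (fold change -0.32 on the log2 scale; limma unadjusted p = 0.037, adjusted p = 0.50). Smad5, a BMP-activated Smad with more tags, had 338 ± 29.8 and 348 ± 53.5 (log2 fold change 0.031; limma adjusted p = 0.96). Smad9, with few tags, had 6.76 ± 2.12 and 4.30 ± 2.95 (log2 fold change -0.64; limma adjusted p = 0.58). Id3, a transcriptional inhibitor induced by BMPs, had 10.4 ± 3.75 and 4.94 ± 3.55, with 62 and 25 tags in all (log2 fold change -1.14; limma adjusted p = 0.45). Its better measured relatives Id1, at 362 ± 91.3 and 409.7 ± 86.2, and Id2, at 95.6 ± 17.2 and 104 ± 38.6, had small positive estimates of 0.19 and 0.07. Tdgf1, the nodal co-receptor Cripto, had 4.53 ± 3.29 and 1.45 ± 1.14 on 27 and 8 tags (log2 fold change -1.12; limma adjusted p = 0.50).

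Of the 10 genes for Smad proteins and their ubiquitin ligases, 9 had lower estimates in pKO mice (10 with scaling to library totals, 8 without pKO replicate 2), with a median log2 fold change of -0.27, while 7789 of all 15453 genes had lower estimates. Smad1 alone of them passed an unadjusted p of 0.05. Summed, they came to between 4536 and 4952 normalized tags in WT mice and between 3677 and 4511 in pKO mice, so the ranges were only narrowly apart. None of the 10 genes by itself had every pKO value below every WT value. How often the sums of other gene lists separate in this way was not tested. Smurf2, a ligase for BMP Smads and receptors, had 784 ± 34.3 and 649 ± 169 (log2 fold change -0.31; limma adjusted p = 0.54), Smad4, the shared partner, 919 ± 48.4 and 847 ± 81.5 (-0.12; adjusted p = 0.75), and Smurf1 1036 ± 155 and 990.1 ± 94.9 (-0.06; adjusted p = 0.92). The 11 BMP target genes, which include Smad6 and Smad7, had 6 lower and 5 higher estimates, with a median of -0.14.

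The co-receptor list, with Tgfbr3 (betaglycan) at 2029 and 1972 normalized tags as its most abundant gene, had a median of 0.0061 over 6 genes. The proteases that cut ligand precursors had a median of -0.020 over 5 genes, and none passed an unadjusted p of 0.05. A single library decided this for Pcsk6, a proprotein convertase that cleaves TGF-beta family precursors. Pcsk6 had 1220.5 to 1634 normalized tags in WT mice and 2152, 486, 2453, 2495 and 2402 in pKO mice, so replicate 2 was far below every WT mouse and the other 4 were above them all. With all mice its log2 fold change was 0.25 (SE 0.35; limma adjusted p = 0.86). Without pKO replicate 2 it was 0.71 (SE 0.12; limma adjusted p = 0.036), the 1 gene of the 69 to pass in any fit. That library also moved the counts: without it, 13 of the 69 genes passed an unadjusted p of 0.05 in place of 6, and 78 genes lower and 28 higher over the whole table passed an adjusted p of 0.1 in place of 4 and 1.

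**Figure D3:**
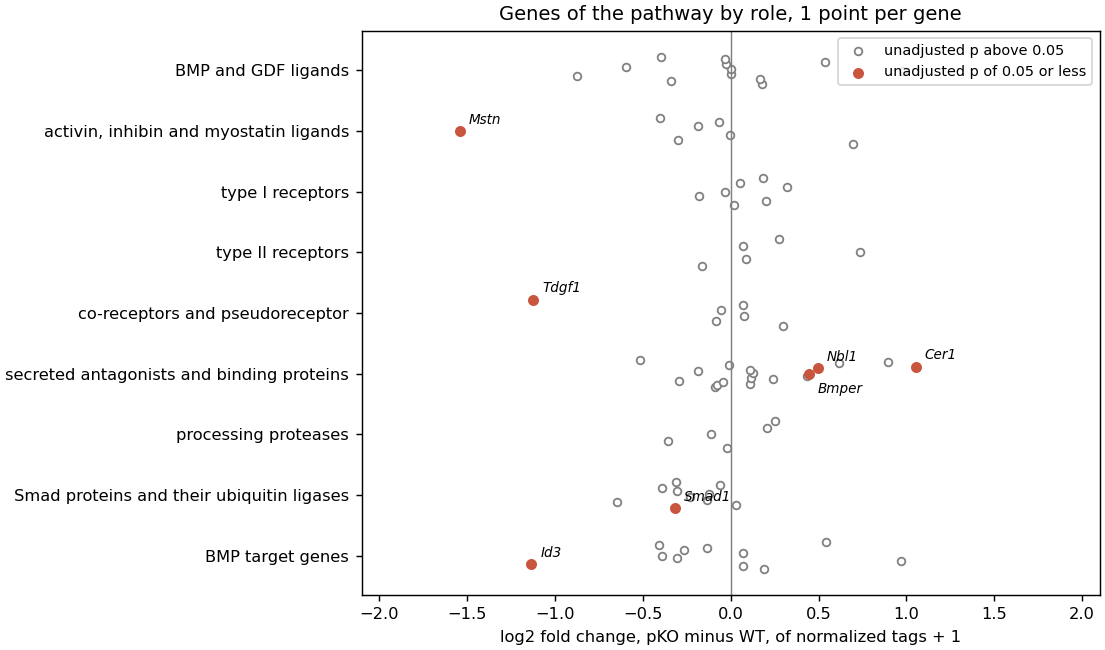
Log2 fold change (horizontal axis, pKO minus WT, of normalized tags + 1) of the 9 genes and the 69 further pathway genes, 1 point per gene, in rows by role. Filled red points are genes at an unadjusted p of at most 0.05 (limma): Mstn at -1.54 stands furthest from 0, Tdgf1, Id3 and Smad1 are on the same side, and Bmper, Nbl1 and Cer1, on the other, are in the row of secreted antagonists. Smad6, Smad7 and Bambi appear in 2 rows.

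Markers of other cells of the fat pad were summed in the same mice, and none of them passed an adjusted p of 0.1 (limma). All 7 mesothelial markers had higher estimates in pKO mice, 3 of them at an unadjusted p of at most 0.05, and their sum was 1314 to 1944 normalized tags in the WT group and 1516 to 3387 in the pKO group. Krt19, a keratin of the mesothelial covering of the pad, had 374 ± 81.3 and 609.7 ± 77.6 with ranges apart (limma adjusted p = 0.25). All 7 macrophage markers had lower estimates (6 of 7 with edgeR or DESeq2, where Emr1 turned), 3 of them at that threshold, with sums of 2258 to 3697 in WT and 1886 to 2993 in pKO mice. Stromal fibroblast and preadipocyte markers summed to 53808 to 66485 in WT and 68104 to 73485 in pKO mice, with no overlap. That sum leaned on Dcn, the most abundant of the 8, with 21572.5 normalized tags in WT and 27841 in pKO mice. Dcn was also the 1 marker of the 8 past an unadjusted p of 0.05 (limma). By gene, 3 of the 8 had lower and 5 had higher estimates, with a median log2 fold change of 0.084. The 6 endothelial markers had 3 lower and 3 higher estimates, 1 of them, higher, at that threshold, with sums of 5458 to 7718 and 5476 to 7551. Their part in the differences of Mstn, the Smad genes and the antagonists was not tested.

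Mest also varied between WT mice, from 20756 to 27897 normalized tags, and each of the 9 genes was compared with it within the 6 WT mice. None of the 9 correlations passed an adjusted p of 0.1. The strongest was that of Inhbb, which was highest in the mouse with least Mest and lowest in the mouse with most. Its Pearson r was -0.83 (exact permutation p = 0.033, adjusted p = 0.30 over the 9) and its Spearman rho -0.83 (exact permutation p = 0.058, adjusted p = 0.26). Without the 2 mice farthest from the median of Mest, which leaves 4, the r of Inhbb was -0.88. In those 4 mice r was 0.95 for Fst, -0.93 for Bmpr1a, -0.85 for Acvr1c and 0.85 for Bmp4. It was -0.29 for Bmp3, 0.39 for Bmpr2 and 0.15 for Mstn. An r of that size in 4 mice therefore does not set Inhbb apart. The r of Inhbb was between -0.92 and -0.71 when any 1 mouse was left out. Scaled to library totals, it was -0.76 (exact permutation p = 0.074). Bmpr1a had a rho of -0.83 (exact permutation p = 0.058, adjusted p = 0.26) and an r of -0.60 (exact permutation p = 0.20, adjusted p = 0.61), and that r was -0.091 (exact permutation p = 0.88) when scaled to library totals. For Bmp2, an r of -0.79 (exact permutation p = 0.082, adjusted p = 0.37) turned to 0.42 without those 2 mice. With any 1 mouse left out, the r of Bmp2 was between -0.92 and 0.10, so leaving out 1 mouse was enough to remove it. Scaled to library totals the r of Bmp2 was -0.41 (exact permutation p = 0.46), and its rho on the deposited scale was -0.31 (exact permutation p = 0.56, adjusted p = 0.85). Bmp3, with an r of -0.13 (exact permutation p = 0.80, adjusted p = 0.93), and Mstn, with -0.16 (exact permutation p = 0.82, adjusted p = 0.93), showed no detectable relation in 6 mice. By quantitative RT-PCR over all WT mice of the diet cohort, the study reports a positive association of Mest with Bmp3 in eWAT. The 6 mice here are a part of that cohort measured by another assay, so their r does not decide that question. The r of Acvr1c was -0.39, of Bmp4 0.21, of Bmpr2 0.13 and of Fst -0.036, with exact permutation p from 0.44 to 0.95 and adjusted p from 0.93 to 0.95.

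**Figure D4:**
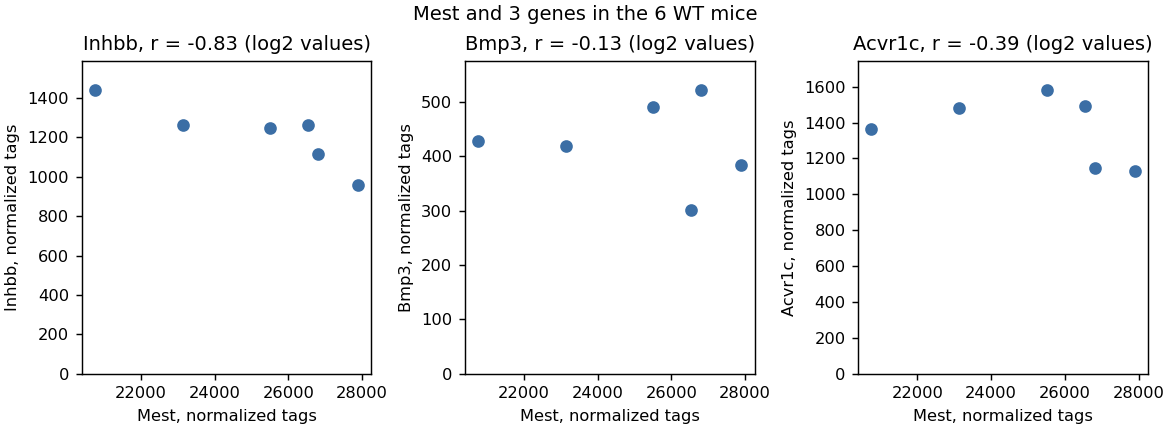
Normalized tags of Inhbb, Bmp3 and Acvr1c (vertical axes, from 0) against those of Mest (horizontal axis) in the 6 WT mice, 1 point per mouse, with the Pearson r of the log2 values above each panel. Inhbb runs from 1443 to 958 between the mouse with least Mest and the mouse with most (r = -0.83), Bmp3 shows no such order (r = -0.13) and Acvr1c lies between them (r = -0.39).

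Within genotypes, the members were also compared with each other and with all genes of at least 50 normalized tags on average, after removing the genotype means. These correlations are over 11 mice that differ in library depth and tissue make-up, and such differences may make genes vary together. The genes named are the highest of 9726 or 9727 compared, so these correlations are descriptions without a test. Inhbb and Acvr1c, ligand subunit and receptor, were the most alike pair of members (r = 0.68), and Bmp4 and Acvr1c the least alike (r = -0.63). For Inhbb the most alike genes were Hspa9 (a mitochondrial chaperone, r = 0.92), Zfp654 (0.91) and Tusc5 (an adipocyte protein of glucose transporter traffic, 0.90). For Acvr1c they were Trappc3 (0.90), Ippk (0.89) and Spata24 (0.87), and for Mstn Paip1 (0.92), Cwc15 (0.90) and Slc35a3 (0.88). Bmp3 varied most like Tmem55b (0.93), Pafah1b1 (0.92) and Xbp1 (a transcription factor of the unfolded protein response, 0.89), Bmp2 like Keap1 (the sensor of oxidative stress, 0.89), Mfsd6 (0.88) and Tfeb (a regulator of lysosome genes, 0.86), and Bmp4 like Bmf (0.87), Prrg2 (0.85) and Clic5 (0.84). Fst varied most like Mcc (0.94), Donson (0.90) and Itgax (the CD11c integrin of macrophages and dendritic cells, 0.90). Bmpr1a was most like Fam78b (0.89), Lpin1 (a phosphatidate phosphatase of triglyceride synthesis, 0.89) and Ndufb9 (0.88), and Bmpr2, with its few tags, most like Ppp2r5a (0.97), Nnmt (0.94) and Prkaa1 (0.93).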

How the data were processed

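Libraries of 3' tags from NlaIII-cut cDNA were sequenced on a SOLiD instrument. The submitters' processing notes name mm10 and edgeR 3.2.3. The deposited values are a signal: the authors' tag counts per gene divided by a factor per library. Each value came out as a whole number of tags (tolerance 0.01, 100% of values), so tags were recovered for count tests, and the factors equal median-of-ratios factors.

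Groups came from the genotype labels. The main test was limma 3.58.1 (mean-variance trend, two-sided) on log2(value + 1) over all 15453 genes with Benjamini-Hochberg adjustment, and calls were read at 0.1 after adjustment and at 0.05 before it. Exact permutation tests of single genes used all 462 splits, and correlations all 720 pairings of 6 mice. The script was tested on simulated data. The 22 alternatives included other scalings, pseudocounts, filters, edgeR 4.0.16 and DESeq2 1.42.0 on recovered tags, a block on replicate number and leaving out each mouse. Replicates are separate mice. The genes and lists were chosen with earlier results of these data known. Named genes are the listed genes, other pathway genes at an unadjusted p of at most 0.05, up to 3 of the most abundant genes per list, and the 3 genes most alike each listed gene. The muscle markers Myh2, Myl1, Ckm, Myh1, Ttn, Casq1, Tnnc2, Acta1, Tnni2, Mylpf, Actn3 and Mb were chosen after their values were seen. So were Smad5, Smad9, Htra1, Krt19, Dcn, Emr1 and Adipoq.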

Additional observations from a re-analysis of the deposited data

Results flagged for a closer look

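A value standing apart from the rest of its genotype by Dixon's 95% criterion was found in 6 of 86 groups of mice (43 genes in 2 genotypes), where chance gives 4.3. Among the members, Bmp2 in WT replicate 3 was 141 normalized tags against 95.5 to 104 in the other WT mice. Bmp4 in WT replicate 6 was 62.9 against 14.6 to 29.2. Of the other pathway genes, Pcsk6 in pKO replicate 2 was 486, where the remaining pKO mice had 2152 to 2495. Eng, the endothelial co-receptor endoglin, was 526 in pKO replicate 5 against 327 to 364. Twsg1 in WT replicate 4 was 549 against 1728 to 2381. Msx1, a homeobox target of BMPs, was 134 in WT replicate 5 against 167 to 185. The 6 values came from 6 different mice, and their causes were not tested.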

How the results depend on the processing

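No member passed an adjusted p of 0.1 except with DESeq2 on recovered tags, where 1 did (Mstn, log2 fold change -1.58). At an unadjusted p of at most 0.05, the 1 member called became 3 with scaling to library totals (Bmp3, Mstn and Bmpr1a), 2 with DESeq2 (Mstn and Bmpr1a), and 0 with a minimum mean of 50 or of 10 tags in every library, since Mstn then drops out, and it was 1 to 2 with a mouse left out (Bmp3 or Fst joining). Mstn was lower in pKO mice in all 20 alternatives that hold it, from -1.73 to -1.09 with a pseudocount of 10. Of the other 69 pathway genes, the 6 called became 3 with a minimum mean of 50 and 3 to 13 with a mouse left out (3 without WT replicate 1 or 4, 13 without pKO replicate 2), and 0 to 1 passed the adjusted threshold there. Without pKO replicate 5, Bmp4 turned to -0.017 (leave-one-out range up to 0.41) and Bmpr2 to 0.025 (leave-one-out range from -0.30). Inhbb, near 0 throughout, changed sign in 7 leave-one-out fits, with all leave-one-out values from -0.087 to 0.047. The causes were not tested.

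Over all genes, 5 passed the adjusted threshold with limma, 75 lower and 63 higher with DESeq2, and 78 lower and 28 higher without pKO replicate 2. Replicate numbers are not stated to pair mice, and deviations of same-numbered mice correlated by -0.093 to 0.14, with 1 of 5 pKO mice most like its own number. The limma fit with the number as a block leaves out WT replicate 6, and in it Mstn was -1.57 (adjusted p = 0.60). Without that mouse and with no block, the limma estimate of Mstn was also -1.57 (adjusted p = 0.32). In the block fit, 1 member and 6 other pathway genes passed an unadjusted p of 0.05, and no count of members changed. Bmpr2, Mstn, Cer1, Id3 and Tdgf1 had few tags per library, which limits what can be read of them. For Bmpr2, the parts of depth and of the position of its last NlaIII site were not tested.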
